A study of Mus musculus with 4 samples.

Results

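The genes described here encode the cytokines and growth factors by which regulatory T (Treg) cells act on their surroundings. They are 10 genes chosen by name among the 24418 genes listed, namely Il10, Tgfb1, Ebi3, Areg, Penk, Tnf, Lta, Ltb, Il4 and Il13, and all 10 were found. RNA was sequenced from Treg cells sorted from spleens and lymph nodes of Foxp3YFP-Cre mice, in which the Foxp3 gene also drives a yellow fluorescent protein fused to Cre recombinase, so that cells with active Foxp3 can be sorted. All 4 samples carried this allele, and the labels name no other. The sorted cells were kept for 3 h with thymic stromal lymphopoietin (TSLP), an epithelial cytokine, at 100 ng/mL (PBS 1 and PBS 2 received PBS instead, and TSLP 1 and TSLP 2 received TSLP). The mice of the study were 8 to 12 weeks old, and the sources do not say whether animals were pooled or whether the samples of a group came from separate mice, so that the spread between them may be technical.

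Treg cells restrain immune responses partly through secreted proteins. IL-10 and TGF-beta 1 damp inflammation, EBI3 is the shared subunit of IL-27 and IL-35, amphiregulin (Areg) promotes tissue repair through the EGF receptor, and enkephalin peptides are cut from the product of Penk. TNF, lymphotoxin alpha (Lta) and lymphotoxin beta (Ltb) are related ligands encoded side by side in the MHC, whereas IL-4 and IL-13 are neighbouring cytokines of type 2 immunity. TSLP signals through a receptor made of TSLPR (Crlf2) and CD127 (Il7r) and is known to activate STAT5, and it favours type 2 cytokines in conventional helper T cells. Crlf2 had 604 and 473 reads in the PBS libraries against 529 and 553 in the TSLP libraries, and Il7r had 1621 and 2191 in the PBS libraries against 2223 and 1928 in the TSLP libraries, so that both receptor chains were read in every library.

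Reads assigned to genes numbered 11328132 and 10724392 in PBS 1 and PBS 2, and 11761234 and 10271571 in TSLP 1 and TSLP 2. Where a gene had 0 reads, as many as 3 could have been missed, that is 0.255 to 0.292 CPM (counts-per-million of library reads), a limit that covers counting error only. The Treg markers Foxp3, Il2ra, Ctla4, Ikzf2, Tnfrsf18 and Lrrc32 summed to 4369.6 and 4814 CPM in PBS 1 and PBS 2, and 4898 and 4989 in TSLP 1 and TSLP 2. Foxp3 had 2514 reads in PBS 1 and 4784 to 5065 in the other libraries, which was not tested for a part in the results below. PBS 1 stood apart in other genes as well. Over 8174 genes with a mean normalized count of at least 100, 9.98% differed over 2-fold between PBS 1 and PBS 2, 8.07% between PBS 1 and TSLP 1 and 9.24% between PBS 1 and TSLP 2. Among PBS 2, TSLP 1 and TSLP 2 the share was 2.26% to 3.16%. The log2 fold changes of the 10 genes are therefore also given without PBS 1.

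Ltb was the most abundant of the 10 genes per exon length, followed by Penk, Tgfb1 and Tnf, and Il13 and Il4 came last. In RPKM, the CPM over the exon length in kilobases, Ltb averaged 167 over the 4 libraries (133 to 188). Penk averaged 98.2 (63.4 to 149), Tgfb1 54.8 (45.3 to 64.1) and Tnf 51.1 (36.1 to 70.9). Areg and Il10 had the same mean level of 34.1, with ranges of 25.3 to 42.6 and 22.1 to 47.2. Lta averaged 16.3 (9.86 to 23.8) and Ebi3 4.62 (3.98 to 5.75), and the highest value was 2.34 for Il13 and 1.65 for Il4. Across libraries the ranges of neighbours in this order overlapped, except those of Lta and Ebi3 and of Ebi3 and Il13. Within each of the 4 libraries, however, most neighbours kept this order, and it changed between libraries for Tgfb1 and Tnf, Areg and Il10, and Il13 and Il4. Only 1.81% of 10944 tested genes with a known exon length had a higher mean level than Ltb, whereas 59.9% lay above Ebi3, 83.9% above Il13 and 87.9% above Il4.

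**Figure D1:**
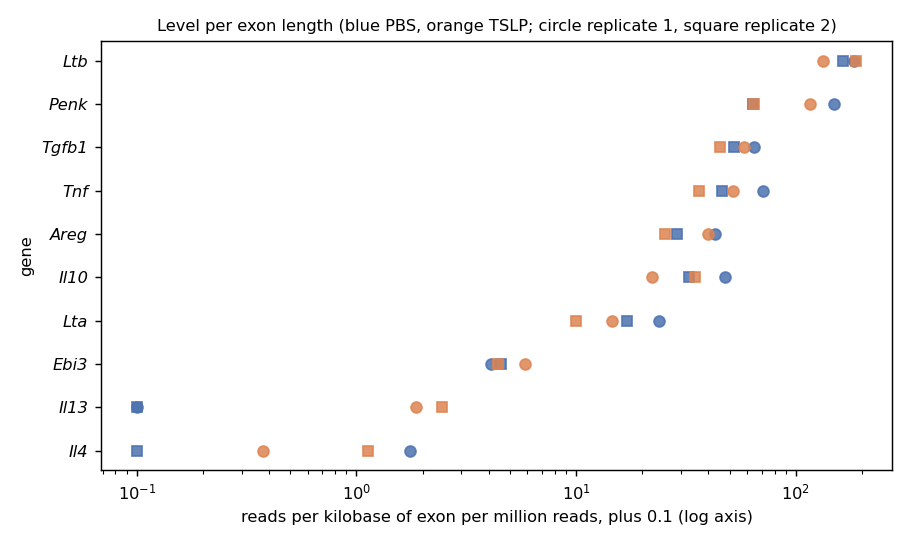
Level of each gene in the 4 libraries, as RPKM plus 0.1 on a log axis (blue PBS, orange TSLP, circles replicate 1, squares replicate 2). The levels run from 133 to 188 for Ltb down to 0 to 1.65 for Il4, and the ranges of most neighbouring genes overlap across libraries.

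To compare these genes between TSLP and PBS, normalized counts (reads of a gene over the size factor of its library) were compared with limma on log2(normalized count + 1). All 10 genes passed the filter on low values, which Il13 did through the TSLP libraries only. By limma with Benjamini-Hochberg adjustment over 11392 genes, none of the 10 had an adjusted p under 0.05 (0.9999 for each), and 0 of all genes tested had one (0% of the background, 192 genes or 1.69% at an unadjusted p under 0.05). edgeR and DESeq2 on the recovered reads also gave 0 genes at an adjusted p under 0.05, with 234 and 286 genes at an unadjusted p under 0.05. An unadjusted p under 0.05 was found for 1 of the 10, Il13. The log2 fold change was below 0 for 7 of the 10 genes, against 48.8% of all genes tested, with a median of -0.15 over the 10 and of 0.01 over all genes. Without PBS 1 the median of the 10 was 0.09. With 2 samples in each group, an exact two-sided permutation test of a single gene cannot give a p below 0.33.

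**Figure D2:**
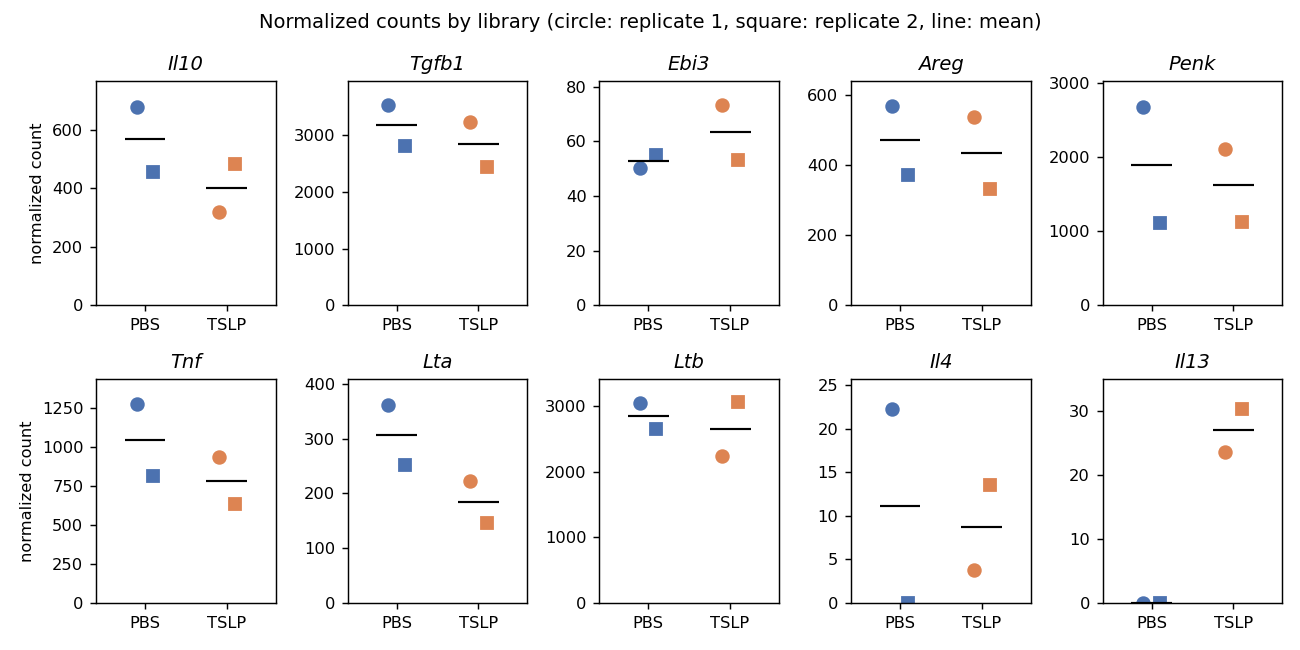
Normalized count of each gene in the 2 PBS and the 2 TSLP libraries on linear axes from 0 (circles replicate 1, squares replicate 2, lines the means). The groups do not overlap in Lta (TSLP below, as in 14.4% of all genes tested) and Il13 (TSLP above, as in 14.5%). Il13 passed the filter on low values through the TSLP libraries only. In Penk, Areg, Tnf, Lta and Tgfb1 the circle lies above the square in both groups, as in 24.0% of all genes tested.

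Among the suppressive cytokines, Il10 encodes IL-10 and is a forward-strand gene of chromosome 1 (131019845 to 131024974, build mm10). Il10 had 701 reads in PBS 1 and 456 in PBS 2, and 340 in TSLP 1 and 464 in TSLP 2. TSLP 1 was the lowest and PBS 1 the highest, and TSLP 2 lay just above PBS 2, so that the groups overlapped. The normalized count of Il10 was 568 ± 158 in the PBS group against 403 ± 116 in the TSLP group (SD, n = 2 each). On the log2 scale the fold change was -0.50 (standard error, SE, 0.33, 95% interval -1.25 to 0.25, unadjusted p = 0.167 by limma), and -0.21 without PBS 1. The interval includes both no difference and a decrease of over 2-fold. Over the omission of each library the log2 fold change ran from -0.80 (without TSLP 2) to -0.20 (without TSLP 1). Rn45s, a ribosomal RNA gene looked at after the values were seen, had 62606 and 41205 reads in the PBS libraries against 29615 and 38298 in the TSLP libraries, so that it too was highest in PBS 1 and lowest in TSLP 1, and its part in the values of Il10 was not tested.

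The receptor chains for IL-10 stood on opposite sides. Il10ra, the ligand-binding chain, had 1328 and 1039 reads in the PBS libraries against 991 and 748 in the TSLP libraries, whereas Il10rb, the chain shared with related cytokines, had 390 and 409 reads in the PBS libraries against 544 and 564 in the TSLP libraries. In neither gene did the groups overlap, as in 14.4% (TSLP below) and 14.5% (TSLP above) of all genes tested. Their log2 fold changes were -0.44 (SE 0.24, unadjusted p = 0.105 by limma) and 0.48 (SE 0.27, unadjusted p = 0.112 by limma), so that neither passed the test, and were -0.28 and 0.42 without PBS 1. The genes whose values over the 4 libraries were most like those of Il10, by Euclidean distance in log2(normalized count + 1), were Imp3 (0.14), Med8 (0.20) and Mbd3 (0.22). Imp3, for example, had 659, 447, 324 and 487 reads in PBS 1, PBS 2, TSLP 1 and TSLP 2, which is the order of the Il10 libraries too.

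Tgfb1 encodes latent TGF-beta 1 and is a forward-strand gene of chromosome 7 (25687002 to 25705077). It had 3659 and 2816 reads in PBS 1 and PBS 2, and 3435 and 2344 in TSLP 1 and TSLP 2. PBS 1 was the highest and TSLP 2 the lowest, and the groups overlapped. Its normalized count was 3182 ± 516 in the PBS group against 2843 ± 556 in the TSLP group (SD, n = 2 each), a log2 fold change of -0.17 (SE 0.24, 95% interval -0.71 to 0.38). Without PBS 1 the value was -0.00098.

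The genes that bind and release latent TGF-beta differed widely in their reads. Of 18 release and partner genes (for TGF-beta, amphiregulin, EBI3 and enkephalin), 10 were tested, 6 with a log2 fold change above 0 and 4 below, and none had an unadjusted p under 0.05 by limma. These counts include Ltbp1 above 0 and Pcsk1 below, which passed the filter on low values through the TSLP and the PBS libraries only. The median was 0.07, and 0.31 with no filter. Lrrc32, which encodes GARP, the protein that holds latent TGF-beta on Treg cells, had the most reads of the list, with 16112 and 15333 in the PBS libraries against 17729 and 14267 in the TSLP libraries. Itgb8, a subunit of an integrin that activates TGF-beta, had 398 reads in PBS 1 and 982, 980 and 997 in PBS 2, TSLP 1 and TSLP 2, so that only PBS 1 was low. Tgfb2 and Tgfb3, the other TGF-beta genes, had at most 4 and 38 reads in a library.

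Ebi3 is a forward-strand gene of chromosome 17 (55952640 to 55957022). It had 52 and 55 reads in the PBS libraries against 78 and 51 in the TSLP libraries, so that TSLP 1 alone was high. The normalized count was 52.7 ± 3.27 in the PBS group against 63.4 ± 14.3 in the TSLP group (SD, n = 2 each), and the log2 fold change of 0.24 had a 95% interval from -1.22 to 1.71 and was 0.18 without PBS 1. Ebi3 had a log2 fold change of only 0.017 without TSLP 1, and of 0.47 without TSLP 2. Its partner genes were read little or not at all, since Il12a, the other subunit of IL-35, had 0 reads in every library and Il27, the other subunit of IL-27, had 6 reads in TSLP 1 and 0 in the rest. An antisense gene, Gm16712, shares 270 exonic bases with Ebi3 and had 61, 44, 12 and 37 reads in PBS 1, PBS 2, TSLP 1 and TSLP 2. The strand setting of the counting is not given in the sources used here, so that reads of these genes may be shared.

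Areg, the EGF receptor ligand, is a forward-strand gene of chromosome 5 (91139599 to 91148432). It had 587 and 372 reads in the PBS libraries against 568 and 316 in the TSLP libraries. Replicate 1 was high and replicate 2 low in both groups, and the groups overlapped. This gave a log2 fold change of -0.13 (SE 0.35, 95% interval -0.92 to 0.66), and 0.18 without PBS 1. The other ligands of this family were scarce. Of Egf, Tgfa, Hbegf, Ereg, Btc and Epgn, only Tgfa and Hbegf were tested. Hbegf, the one with the most reads, had 91 and 20 reads in the PBS libraries against 31 and 12 in the TSLP libraries. Ereg had 42 reads in PBS 2 and 0 in the others, and Egf had 25 and Epgn 23 in TSLP 2 and 0 in the others. Egfr itself had 10 reads in PBS 2 and 0 in every other library.

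Penk, the proenkephalin gene, is a reverse-strand gene of chromosome 4 (4133531 to 4138819). It had 2755 and 1111 reads in PBS 1 and PBS 2, and 2236 and 1076 in TSLP 1 and TSLP 2. The replicates of a group lay further apart than the groups did. Their log2 difference was 1.26 with PBS and 0.90 with TSLP, and only 4.32% and 4.37% of 8174 genes with a mean normalized count of at least 100 had so large a gap within PBS and within TSLP. The normalized count was 1891 ± 1102 in the PBS group against 1615 ± 694 in the TSLP group (SD, n = 2 each), and the log2 fold change of -0.16 (SE 0.42, 95% interval -1.12 to 0.79) was 0.47 without PBS 1. The genes of peptide processing had few reads. Pcsk1, a convertase that cuts prohormones, had 41 and 13 reads in the PBS libraries against 0 and 3 in the TSLP libraries, and Cpe, a carboxypeptidase that trims such peptides, had 63 and 48 in the PBS libraries against 19 and 28 in the TSLP libraries. Neither passed the test, with unadjusted p-values by limma of 0.0923 and 0.175, and Pcsk1 passed the filter on low values through the PBS libraries only. Both were named after their values were seen. Oprd1, Oprm1 and Oprk1, the opioid receptor genes, had 0 reads in every library. A transcript on the other strand of Penk, A830012C17Rik, shares 233 exonic bases with it and was not analysed here.

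**Figure D3:**
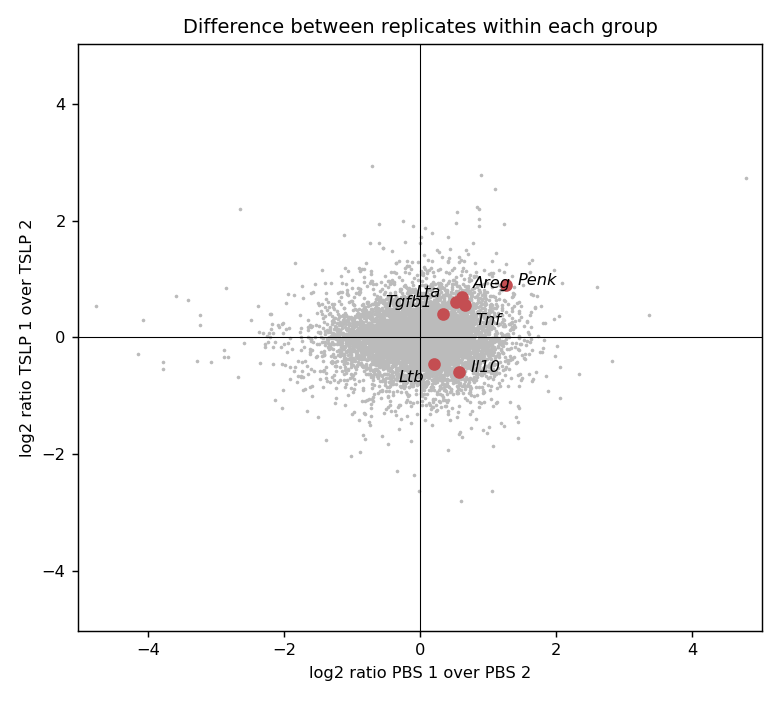
Log2 ratio of replicate 1 to replicate 2 with PBS (x axis) and with TSLP (y axis) for 8174 genes with a mean normalized count of at least 100 (grey) and for the 7 described genes among them (red). Penk lies at 1.26 and 0.90, with Areg, Lta, Tnf and Tgfb1 in the same quadrant, while Il10 and Ltb lie above 0 with PBS and below 0 with TSLP.

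In 5 of the 10 genes (Areg, Penk, Tgfb1, Tnf and Lta), replicate 1 had a higher normalized count than replicate 2 in both groups, a pattern seen in 24.0% of all genes tested, and in 0 of the 10 was replicate 2 the higher in both, against 25.6% of all genes tested. The log2 difference between replicates was 0.61 with PBS and 0.69 with TSLP for Areg, 0.65 and 0.56 for Tnf, 0.52 and 0.60 for Lta, and 0.33 and 0.40 for Tgfb1. The median difference over the 8174 genes was 0.39 with PBS and 0.23 with TSLP, irrespective of its direction. The labels do not say that a replicate number marks a shared mouse or day.

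Tnf, Lta and Ltb lie within the same stretch of chromosome 17. Ltb runs from 35194439 to 35196320 on the forward strand, Tnf from 35199381 to 35202007 and Lta from 35203165 to 35205351, both on the reverse strand, so that 3060 bases separate Ltb from Tnf and 1157 bases separate Tnf from Lta. Lta had 373 and 252 reads in PBS 1 and PBS 2, and 236 and 140 in TSLP 1 and TSLP 2. Both TSLP libraries lay below both PBS libraries, although TSLP 1 came close to PBS 2. Of all genes tested, 14.4% lay below in this way and 14.5% above, and of the 10 genes Lta was the only one below and Il13 the only one above. Il13 passed the filter on low values through the TSLP libraries only, so that its count adds nothing. The normalized count of Lta was 307 ± 77.4 in the PBS group against 184 ± 53.8 in the TSLP group (SD, n = 2 each). The log2 fold change was -0.74 (SE 0.39, 95% interval -1.63 to 0.15, unadjusted p = 0.0916 by limma). Between libraries of the same number the log2 ratio of TSLP to PBS was -0.70 and -0.78. Without PBS 1 the value was -0.48, and leaving out each library in turn gave -1.04 to -0.44.

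Tnf, which encodes the inflammatory cytokine TNF, had 1316 and 812 reads in the PBS libraries against 991 and 607 in the TSLP libraries. TSLP 1 lay above PBS 2, so that the groups overlapped. The normalized count was 1044 ± 327 in the PBS group against 784 ± 212 in the TSLP group (SD, n = 2 each), a log2 fold change of -0.40 (SE 0.30, 95% interval -1.09 to 0.28), and of -0.08 without PBS 1. Over the omission of each library the value ran from -0.73 (without PBS 2) to -0.08. Ltb, which anchors the lymphotoxin heterotrimer in the membrane, had 3146 and 2648 reads in the PBS libraries against 2378 and 2935 in the TSLP libraries. TSLP 1 was the lowest library, TSLP 2 lay above PBS 2, and the groups overlapped. The log2 fold change of Ltb was -0.12 (SE 0.24, 95% interval -0.65 to 0.42), and -0.02 without PBS 1.

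Since Lta and Tnf both had lower values in replicate 2, their levels were also set against each other within each library. The RPKM of Tnf was 2.98 times that of Lta in PBS 1 and 2.72 times in PBS 2, and 3.54 and 3.66 times in TSLP 1 and TSLP 2. These ratios did not overlap between the groups, and their means were 2.85 ± 0.183 in the PBS group against 3.60 ± 0.0815 in the TSLP group (SD, n = 2 each). The ratio of Ltb to Lta was 7.69 and 9.59 in the PBS libraries against 9.19 and 19.1 in the TSLP libraries, which overlapped, and that of Ltb to Tnf was 2.58 and 3.53 in the PBS libraries against 2.59 and 5.23 in the TSLP libraries. These 3 ratios were computed after the values had been seen and carry no test.

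The receptors of this branch were read unequally. Tnfrsf1b, which encodes TNFR2, the TNF receptor for which Treg cells are known, had the most reads among 20 receptor genes, with 11059 and 9296 in the PBS libraries against 11971 and 10550 in the TSLP libraries. Its log2 fold change was 0.16 (SE 0.24). Its normalized counts were 10719 and 9301 in the PBS libraries against 11278 and 11025 in the TSLP libraries. These did not overlap, with TSLP above, as in 14.5% of all genes tested. Tnfrsf1a, which encodes TNFR1, had 606 and 423 reads in the PBS libraries against 403 and 192 in the TSLP libraries. Every TSLP library of Tnfrsf1a lay below the PBS libraries, as in 14.4% of all genes tested. On the log2 scale the fold change was -0.85 (SE 0.38, unadjusted p = 0.0505 by limma), and -0.61 without PBS 1. Leaving out each library in turn gave -1.31 to -0.39, and the unadjusted p was under 0.05 in 8 of 17 settings. The neighbouring genes Nfkbil1 and Lst1 had 315, 159, 223 and 90 reads and 0, 4, 6 and 0 reads in PBS 1, PBS 2, TSLP 1 and TSLP 2. Ltbr, the lymphotoxin beta receptor, had 6 reads in PBS 2 and 0 in the others.

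Promoter windows of the genes, from 250 bases before to 50 bases after the start, were taken from RefSeq (GRCm38.p6) for 8 of the 10 genes, all but Il10 and Penk, and Il4 had 2 windows. They were searched on both strands for TTCNNNGAA, a form of the motif bound by STAT5, for TGANTCA, a form of the AP-1 motif, and for GGAAANT, a form of the NFAT motif. TTCNNNGAA was present in 8.30% of 32851 windows and in those of Lta and Ltb and 1 of the 2 of Il4. TGANTCA was present in 7.81% of all windows and in 0 of the 9 windows of these genes, and GGAAANT in 17.6% of all windows and in those of Areg, Il13, Ltb and Tnf and the other window of Il4. A match is only a match of letters. The windows of Lta and Tnf are shown because these neighbouring genes differed alike between replicates, and that of Il13 because its groups did not overlap. Each is given on the strand of its gene, 5′ to 3′, with matches to TTCNNNGAA and GGAAANT in capitals. The Lta window (chr17:35205302-35205601, reverse strand) holds matches that begin 152 and 16 bases before the start. The Tnf window (chr17:35201958-35202257, reverse strand) holds a match to GGAAANT on the other strand, 183 bases before the start, and the Il13 window (chr11:53634653-53634952, reverse strand) holds another, 133 bases before the start.
Lta: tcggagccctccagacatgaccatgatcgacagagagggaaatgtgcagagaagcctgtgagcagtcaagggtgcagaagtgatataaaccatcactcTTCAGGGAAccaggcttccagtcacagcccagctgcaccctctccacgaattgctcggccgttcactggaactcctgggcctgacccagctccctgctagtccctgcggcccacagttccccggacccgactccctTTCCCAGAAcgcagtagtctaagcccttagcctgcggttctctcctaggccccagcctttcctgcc
Tnf: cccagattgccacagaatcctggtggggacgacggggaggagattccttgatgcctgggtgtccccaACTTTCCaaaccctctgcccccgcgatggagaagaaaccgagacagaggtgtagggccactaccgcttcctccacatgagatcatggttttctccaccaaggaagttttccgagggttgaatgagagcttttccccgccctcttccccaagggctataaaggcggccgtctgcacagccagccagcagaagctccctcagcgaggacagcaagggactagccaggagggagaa
Il13: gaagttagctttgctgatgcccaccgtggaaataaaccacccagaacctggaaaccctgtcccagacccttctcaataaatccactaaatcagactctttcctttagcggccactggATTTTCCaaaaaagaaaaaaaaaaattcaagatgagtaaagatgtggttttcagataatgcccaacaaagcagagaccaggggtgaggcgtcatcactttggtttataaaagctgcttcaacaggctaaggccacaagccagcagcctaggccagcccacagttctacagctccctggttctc

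Il4 and Il13 lie on the reverse strand of chromosome 11, from 53602982 to 53618669 and from 53631324 to 53634702, with 12654 bases between them. Il13 had 0 reads in PBS 1 and in PBS 2, 25 in TSLP 1 and 29 in TSLP 2. Its level with TSLP was low, at 1.76 and 2.34 RPKM. Against the limit of 3 reads for each PBS library, the mean normalized count of the TSLP libraries was at least 9.11-fold higher. The bound was 10.3 without TSLP 1 and 7.97 without TSLP 2. It covers counting error in the PBS libraries only, not the spread between libraries, and is no bound on an effect of TSLP. The fitted log2 fold change of Il13, 4.79 with and without PBS 1, depends on the pseudocount and is no bound. The unadjusted limma p of Il13 was 0.0447, and was 0.0822 without TSLP 1 and 0.115 without TSLP 2. Over 16 settings by limma, edgeR or DESeq2, the unadjusted p ranged from 0.00281 to 0.115, and the adjusted p was never below 0.267. Since Il13 passed the filter on low values through the TSLP libraries only, these p-values support nothing about it.

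Il4 had 23 and 0 reads in PBS 1 and PBS 2, and 4 and 13 in TSLP 1 and TSLP 2. The highest and the lowest library were both PBS, so that Il4 differed more within a group than between the groups. This gave a log2 fold change of 0.79 (SE 2.19, 95% interval -4.16 to 5.74) and 3.06 without PBS 1, while the mean normalized counts ran the other way, with 11.1 ± 15.8 in the PBS group against 8.68 ± 6.94 in the TSLP group (SD, n = 2 each). Il5, the third type 2 cytokine gene at this locus, had 0 and 21 reads in the PBS libraries against 10 and 0 in the TSLP libraries.

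Scattered reads of this size were common in these libraries. Of 1016 tested genes with a mean normalized count from 5 to under 20, 77.0% had 0 reads in at least 1 library. In 352 genes a PBS library had 0 reads and the other PBS library 25 or more, and in 240 genes the same held for the TSLP libraries. In comparison, 4 genes shared the pattern of Il13, with 0 reads in both PBS libraries and at least 25 in both TSLP libraries (Cdh1, Il13, Zfa-ps and Zfp128), and 1 gene, Cpne2, had the mirror pattern. The number of 25 reads is that of Il13 in TSLP 1, so that these counts describe the libraries and support nothing about Il13. The genes nearest to Il13 over the 4 libraries, by Euclidean distance in log2(normalized count + 1), were Adgrg1 (0.33), Zfa-ps (0.35) and Ccdc63 (0.45), each with 0 reads in both PBS libraries and 21 to 34 with TSLP.

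Rad50, a DNA repair gene that lies 14816 bases from Il13 and holds the locus control region of these cytokine genes, had 229 and 415 reads in the PBS libraries against 644 and 489 in the TSLP libraries. The groups did not overlap, with TSLP higher, as in 14.5% of all genes tested, and PBS 1 the lowest. The log2 fold change of Rad50 was 0.87 (SE 0.36, unadjusted p = 0.0362 by limma). It rested partly on PBS 1, without which it was 0.42, and its unadjusted p was under 0.05 in 12 of 17 settings. Kif3a, the neighbour of Il4, had 150 and 105 reads in the PBS libraries against 139 and 127 in the TSLP libraries. Gata3, the transcription factor that drives type 2 cytokines, had 3421 and 2062 reads in the PBS libraries against 3060 and 1966 in the TSLP libraries, a log2 fold change of -0.10 (SE 0.29). Il4ra, the receptor chain shared by IL-4 and IL-13, had 8925 and 6956 reads in the PBS libraries against 9381 and 5918 in the TSLP libraries. Il13ra1 had 21 reads in PBS 2 and 0 in the others, and Il13ra2 had 0 reads in every library.

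Basophils and mast cells also make IL-4 and IL-13, so their markers were read as well. In the study, CD4-positive T cells were selected magnetically and labelled for CD4 before the cell sort. Mcpt8, Fcer1a, Ms4a2 and Cpa3 had 0 reads in every library and Gata2 had 4 reads in TSLP 1 alone. Hdc, which is not restricted to these cells, had 49 and 33 reads in the PBS libraries against 32 and 25 in the TSLP libraries. The natural killer cell markers Ncr1 and Klre1 were at 0 in every library, and Klrb1c had 8 and 0 reads in the PBS libraries against 5 and 25 in the TSLP libraries. The B cell gene Cd79a had 0, 43, 28 and 9 reads and Cd79b had 7, 61, 20 and 87 reads in PBS 1, PBS 2, TSLP 1 and TSLP 2, whereas Ms4a1 had 8 reads in PBS 2 and 0 in the others. The CD8 genes Cd8a and Cd8b1 summed to 13.4, 7.83, 8.84 and 11.97 CPM in PBS 1, PBS 2, TSLP 1 and TSLP 2, whereas Cd4 alone had 5804 and 6291 reads in the PBS libraries against 6205 and 6184 in the TSLP libraries. Of the 6 myeloid genes, Adgre1 was at 0 in every library, and their sum was 61.5 CPM in PBS 1 and 40.1, 41.2 and 42.4 in PBS 2, TSLP 1 and TSLP 2, most of it on Cst3. Cd68 had 174 and 66 reads in the PBS libraries against 59 and 16 in the TSLP libraries, and Itgam had 23 and 19 against 4 and 7. Lyz2, in contrast, had 1 and 43 reads in the PBS libraries against 37 and 40 in the TSLP libraries, and Csf1r had 27 reads in TSLP 2 and at most 1 in the others, so that the myeloid genes did not share one order of libraries. Their part in the values of the 10 genes was not tested. In bulk samples like these, fewer cells that make a transcript and less transcript per cell cannot be told apart.

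**Figure D4:**
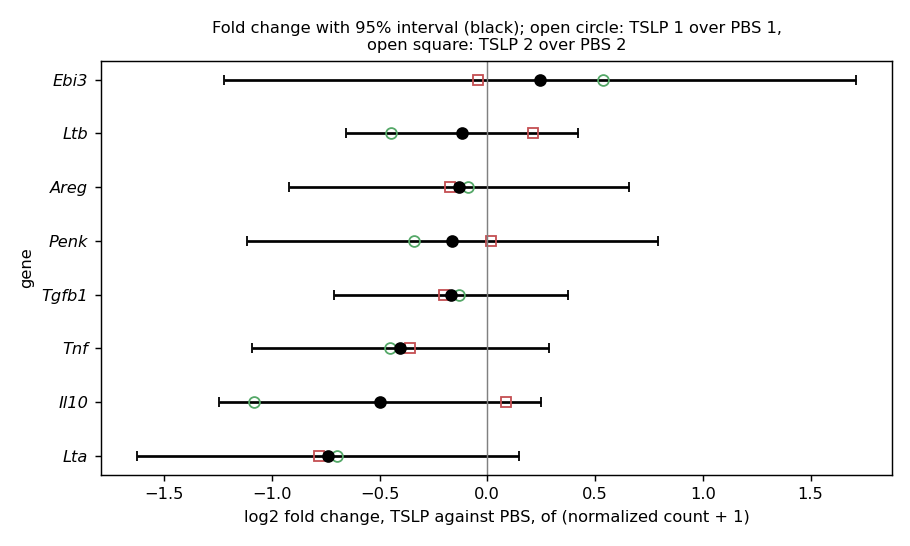
Log2 fold change of TSLP against PBS with its 95% interval by limma (black) for the 8 genes with over 40 reads in every library, and the ratio between libraries of the same number (open circles TSLP 1 over PBS 1, open squares TSLP 2 over PBS 2). Every interval includes 0, and the open symbols lie close together for Lta (-0.70 and -0.78) but far apart for Il10 (-1.08 and 0.09).

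The other secreted ligands were described by lists. Of 19 other cytokine genes, 7 were tested, 3 with a log2 fold change above 0 and 4 below with a median of -0.23 (0.18 by edgeR), and 0 had an unadjusted p under 0.05. Il16, the gene of a chemoattractant cytokine, had the most reads of this list, 2226 and 2375 in the PBS libraries against 2335 and 2821 in the TSLP libraries. Ifng had 151 and 52 reads in the PBS libraries against 59 and 86 in the TSLP libraries, and Il2 had 16, 5, 2 and 23 in PBS 1, PBS 2, TSLP 1 and TSLP 2. Of 10 further TNF family ligands, 8 were tested, 6 above 0 and 2 below with a median of 0.28 (-0.07 without TSLP 1 and 0.08 without PBS 1), and 0 had an unadjusted p under 0.05. Tnfsf8, the gene of CD30 ligand, led these with 2395 and 3966 reads in the PBS libraries against 3757 and 4002 in the TSLP libraries.

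Of 8 chemokine genes 4 were tested, and in 3 of these both TSLP libraries lay under both PBS libraries, as in 14.4% of all genes tested. One of the 3, Xcl1, passed the filter on low values through the PBS libraries only, so that its count adds nothing. Cxcl10, an interferon-induced chemokine, had 254 and 207 reads in the PBS libraries against 134 and 83 in the TSLP libraries. The log2 fold change was -1.10 (SE 0.43, unadjusted p = 0.0317 by limma), and -0.98 without PBS 1, and the unadjusted p was under 0.05 in 11 of 17 settings. Ccl20, a ligand of CCR6, had 94 and 24 reads in the PBS libraries against 23 and 0 in the TSLP libraries, and Xcl1, the gene of lymphotactin, had 28 and 10 in the PBS libraries against 0 and 0 in the TSLP libraries. Their unadjusted p-values by limma were 0.0777 and 0.109. Ccl5, the gene of a T cell chemokine, had 155 and 166 in the PBS libraries against 153 and 224 in the TSLP libraries, the most of this list over the 4 libraries together, although Cxcl10 had more in both PBS libraries. Of 6 secreted effector genes 5 were tested, 2 above 0 and 3 below, and 0 had an unadjusted p under 0.05. Their median was -0.01, and -0.25 (without PBS 2) to 0.28 (without TSLP 2) when a library was left out, and 0.15 with no filter. Among them Lgals1, the gene of galectin-1, had the most reads, with 1554 and 1082 in the PBS libraries against 1200 and 1355 in the TSLP libraries.

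Of the 20 receptor genes, 13 were tested, 8 above 0 and 5 below with a median log2 fold change of 0.08. This median was -0.01 by DESeq2, and -0.05 (without PBS 1) to 0.26 (without PBS 2) when a library was left out. All 16 transcription factor genes chosen as regulators of cytokine genes were tested, 6 above 0 and 10 below with a median of -0.01. None of these had an unadjusted p under 0.05 by limma. Stat5a, a STAT factor that TSLP activates, had the most reads of the transcription factors, 11102 and 10281 in the PBS libraries against 11743 and 9056 in the TSLP libraries. Prdm1, which encodes Blimp-1, a factor needed for IL-10 in effector Treg cells, had 184 and 236 reads in the PBS libraries against 327 and 379 in the TSLP libraries. On the log2 scale the fold change was 0.76 (SE 0.35, unadjusted p = 0.0569 by limma), opposite in sign to that of Il10, and 0.56 without PBS 1, and the unadjusted p was under 0.05 in 5 of 17 settings. Maf, another regulator of Il10, had 2097 and 1658 reads in the PBS libraries against 1891 and 1798 in the TSLP libraries.

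**Figure D5:**
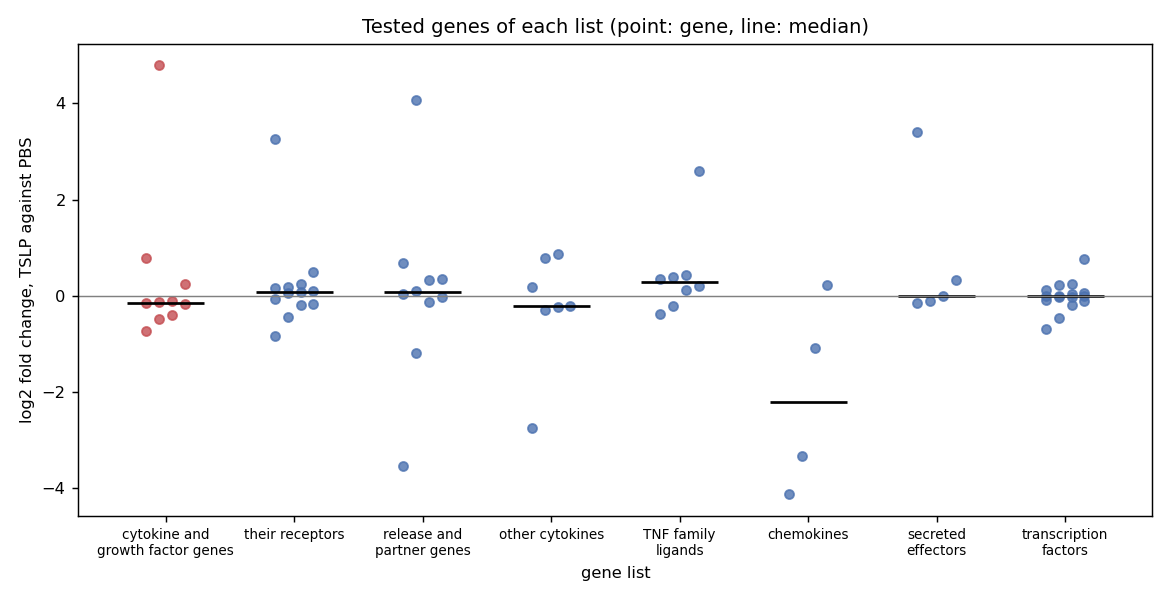
Log2 fold change of TSLP against PBS for the tested genes of each list (points) and the median of each list (lines). The medians are -0.15 for the 10 described genes, 0.08 for the receptors and 0.07 for release and partner genes, and the points beyond 2 on either side are genes with under 100 reads in each library. The line of the chemokines rests on 4 genes, of which Xcl1 passed the filter through the PBS libraries only, and it would lie at 0.22 with no filter.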

How the data were processed

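Sorted Treg cells were sequenced as 50-base single-end reads of directional libraries (4 libraries, 2 per group). Per the labels and the study's methods, the authors aligned reads to mm10 with HISAT2, counted them per gene with HTSeq and normalized them with DESeq2. The annotation and strand setting of the counting are not given in the sources used here. The deposited values are signal values, that is counts of reads over the size factor of their library, and the 4 columns held nothing else. Since the low values of each library are whole multiples of one step, the authors' read counts were recovered from the deposited signal, and 100% of values were whole within 0.01. No value column was left out. Of the gene names, 27 had turned into dates and 2 names stood on 2 rows.

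Genes that reached a normalized count of 10 in 2 or more libraries were compared with limma 3.58.1 (R 4.3.3, empirical Bayes with a trend) on log2(normalized count + 1), with Benjamini-Hochberg adjustment over 11392 genes, so that fold changes are differences of mean log2 values on this scale. For genes with few reads they depend on the pseudocount and can differ from the ratio of the group means in size or in sign. edgeR 4.0.16 and DESeq2 1.42.0 on the recovered reads, other filters and pseudocounts, removal of each library's trend over exon length, scaling to total reads, a replicate block and leaving out each library were alternatives. At an adjusted p under 0.05, edgeR called 0 genes. The fits were tested on simulated data, in which no library stood apart as PBS 1 does here. RPKM used the union of exons in GENCODE M21 (GRCm38), and promoter sequences came from RefSeq. The named genes were the 10 genes, the gene with the most reads and those with an unadjusted p under 0.05 in each gene list, the neighbours at both loci, and the 3 genes nearest to Il10 and Il13. Further genes of the lists were named after their values were seen. The 10 genes and the lists were chosen with earlier results of these data known.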

Additional observations from a re-analysis of the deposited data

How the results depend on the processing

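By limma, edgeR and DESeq2, 0 genes had an adjusted p under 0.05 under every alternative run. The number of genes at an unadjusted p under 0.05 was 192, and 358 with no filter on low values, 234 with edgeR, and from 79 (without TSLP 2) to 1858 (without PBS 2) when a library was left out. Of the 10 genes, 1 had an unadjusted p under 0.05, and 0 had one with the filter at 50, which removes Il13, with a pseudocount of 0.5, or with a replicate block in limma or edgeR, and 0 to 1 when a library was left out. The median log2 fold change of the 10 genes was -0.15, and -0.58 (without PBS 2) to 0.087 (without PBS 1) when a library was left out. With the trend of each library over exon length removed, this median was -0.048, and Areg (-0.015), Ltb (-0.021) and Penk (-0.075) came closer to 0. Il10, Tnf, Lta and Ebi3 kept their direction under every alternative, although not their size. The direction of Il13, with 0 reads in both PBS libraries, could not change under any alternative that gave a value. When a library was left out, Ebi3 ran from 0.017 (without TSLP 1) to 0.47, Tnf from -0.73 to -0.078 (without PBS 1) and Il10 from -0.80 to -0.20. The log2 fold change of Il4 was -0.36 with edgeR, with DESeq2 with or without its filter and with edgeR on DESeq2 size factors, and ran from -1.48 (without PBS 2) to 3.06 (without PBS 1) when a library was left out, with -0.017 without TSLP 2. Over the same omissions Areg ran from -0.48 to 0.22 (0.18 without PBS 1, 0.22 without TSLP 2), Penk from -0.79 to 0.47 (0.47 without PBS 1, 0.29 without TSLP 2), Tgfb1 from -0.37 to 0.034 (without TSLP 2) and Ltb from -0.34 to 0.11 (without TSLP 1). With a library left out, 1 sample remains in its group and is assumed to vary like the other group. The cause of these shifts was not tested. The replicate numbers are shared between groups, but no label ties them to a mouse or day, and across 8174 genes the deviations of PBS 1 and TSLP 1 from their group means had a correlation of 0.0248. With the replicate block, 258 genes in limma and 215 in edgeR had an unadjusted p under 0.05, and Il13 had an unadjusted p of 0.0504 in limma and 0.0981 in edgeR (0.0447 and 0.0211 without the block). Depth limits Il13 and Il4, which had 3 or fewer reads in at least 1 library.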
